A study of Homo sapiens with 6 samples.

Results

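The genes described here serve the integrated stress response, the unfolded protein response and the charging of tRNA. They were taken as a fixed list of 48 symbols: ATF4 and its partner transcription factors, ATF4 target genes, sensors and folding proteins of the endoplasmic reticulum (ER), and cytosolic aminoacyl-tRNA synthetases. The symbols were looked up in the 18268 rows of a deposited expression table, and each of the 48 had a row. In 3 cases the row joined the symbol to that of an overlapping or neighbouring gene (DDIT3;AC022506, FAU;SYVN1 and AARS;EXOSC6), and such a row was kept as 1 unit.

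The samples were MIA PaCa-2 cells, an established human pancreatic cancer line labelled as epithelial. Total RNA was sequenced from 3 libraries of cells with a knockout (KO) of LINC00901, a long non-coding RNA gene, and from 3 libraries of vector control cells, labelled LCV2. Both groups were grown in DMEM with fetal bovine and horse serum. The labels do not say whether the KO cells were a clone or a pool, nor whether libraries came from separate cultures, so p-values measure the spread between these libraries, which may be technical. Values are FPKM, fragment counts scaled to the length of the transcript and the size of the library, and their depth is unknown. In bulk RNA, fewer cells of a type and less RNA per cell cannot be told apart. LINC00901 itself was in 0 of the rows, so the knockout was not checked here and every direction rests on the labels.

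In the integrated stress response, kinases that sense amino acid shortage, ER stress, double-stranded RNA or haem shortage phosphorylate the translation factor eIF2. General translation then slows, while the ATF4 mRNA is translated more, so ATF4 protein can rise without a change in its mRNA. ATF4 switches on genes of amino acid synthesis, amino acid uptake and tRNA charging, together with the stress factor DDIT3 (CHOP). The unfolded protein response reaches the same kinase step through PERK and adds the sensors IRE1 (gene ERN1), which splices XBP1 mRNA, and ATF6. XBP1 and ATF6 raise ER chaperones, folding enzymes and the machinery of ER-associated degradation (ERAD). Secretory cells such as those of the exocrine pancreas depend on this pathway.

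The libraries of a group were not equally alike, and this bears on every result below. Across the 9624 rows tested, which reached 1 FPKM in 3 or more libraries, vector control 2 and 3 correlated at r = 0.979. Vector control 1 correlated with them at 0.904 and 0.906, and with KO 1 to 3 at 0.900, 0.925 and 0.932. KO 2 and 3 correlated at 0.970, and KO 1 with them at 0.933 and 0.935. The correlations run over genes and carry no test. Histone rows, which rise in cells that replicate DNA, held 3.06%, 5.28% and 5.33% of the FPKM sum in KO 1 to 3 and 6.35%, 2.87% and 3.33% in vector control 1 to 3. Calls and many of the values are therefore also given without vector control 1, which leaves 2 control libraries. The 6 epithelial genes with rows of their own summed to 65.93 to 83.69 FPKM in the KO libraries and to 108.28 to 160.05 in the controls. Of these, KRT18 stood between 28.78 and 79.42 FPKM and KRT19 between 12.69 and 39.34, while EPCAM, CDH1 and KRT7 were at 0.14 FPKM or below. CLDN4 was at 0.54, 23.03 and 21.60 FPKM in KO 1 to 3 and at 11.29, 42.72 and 42.32 FPKM in vector control 1 to 3. Of the mesenchymal markers, VIM stood between 459.52 and 674.80 FPKM and CDH2 at 0.06 FPKM or below. Among markers of other cell types, the summed level of the leukocyte genes with rows of their own was 0 to 0.04 FPKM in the KO libraries and 0.09 to 0.68 in the controls, with PTPRC and CD3E listed at 0. Of the 5 fibroblast genes with such rows, summed at 51.69 to 59.07 FPKM in the KO libraries and 25.81 to 37.69 in the controls, 2 reached 1 FPKM, COL1A2 and COL1A1. DCN was listed at 0. The 4 endothelial genes summed to 0 in the KO libraries and to 0.14 to 0.34 FPKM in the controls, with VWF and KDR listed at 0. Whether any of these differences has a part in the results was not tested.

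Many genes of the ER stress response were higher in vector control 2 and 3 than in all KO libraries, while vector control 1 stood near the KO libraries. This layout held for CALR, PDIA4, CEBPB, PPP1R15A, DDIT3 and HERPUD1, and in part for XBP1. A smaller set of ATF4 targets, led by CHAC1, ran the other way and was higher in the KO libraries. ATF4 mRNA itself and nearly all tRNA synthetases stayed close between the groups. With all 6 libraries, limma called 0 of the 48 members at an adjusted p below 0.05, where it called 1.35% of all tested rows. Without vector control 1 it called 14 members, 11 lower and 3 higher in the KO libraries, where it called 5.07% of all tested rows lower and 8.74% higher.

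**Figure D1:**
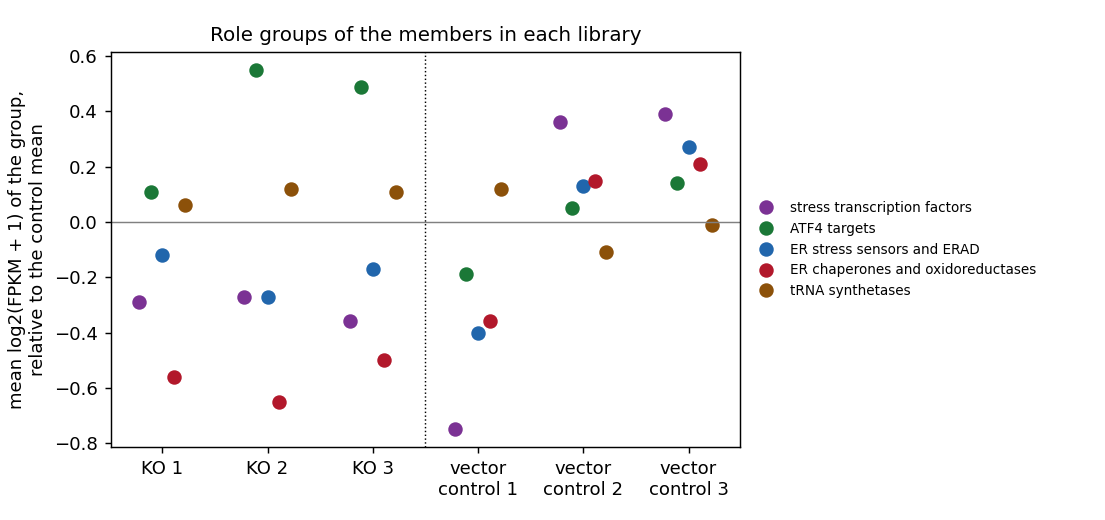
Each point is the mean of log2(FPKM + 1) over the members of a role group in 1 library, relative to the mean of the 3 vector controls (vertical axis); the 6 libraries run along the horizontal axis. The ER chaperones and oxidoreductases lie between -0.65 and -0.50 in the KO libraries, at -0.36 in vector control 1 and at 0.15 and 0.21 in vector control 2 and 3, while the tRNA synthetases stay between -0.11 and 0.12 in every library.

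At an unadjusted limma p below 0.05, 6 of the 48 members were higher in the KO libraries and 10 were lower. The shares over all tested rows were 11.5% higher and 6% lower. In 8 members all KO libraries lay above all controls (16.7% of members, 15.4% of all tested rows), and in 6 all lay below (12.5% of members, 8.35% of all tested rows). The share above is near that of all genes. Over the 48 members the median log2 fold change, KO minus vector control on the log2(FPKM + 1) scale, was 0.02, against 0.08 over all tested rows. This near-zero median joins role groups with different values. Medians were -0.54 for the 9 ER chaperones and oxidoreductases, -0.26 for the 6 stress transcription factors, 0.01 for the 7 ER sensors and ERAD genes, 0.04 for the 16 tRNA synthetases and 0.45 for the 10 ATF4 targets. After median scaling the ERAD and synthetase medians turned to -0.08 and -0.05. Without vector control 1 the medians were -0.66 for the chaperones, -0.58 for the stress factors, -0.12 for the sensors and ERAD genes, 0.11 for the synthetases and 0.31 for the ATF4 targets. Without vector control 3 the stress factor median was -0.05.

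**Figure D2:**
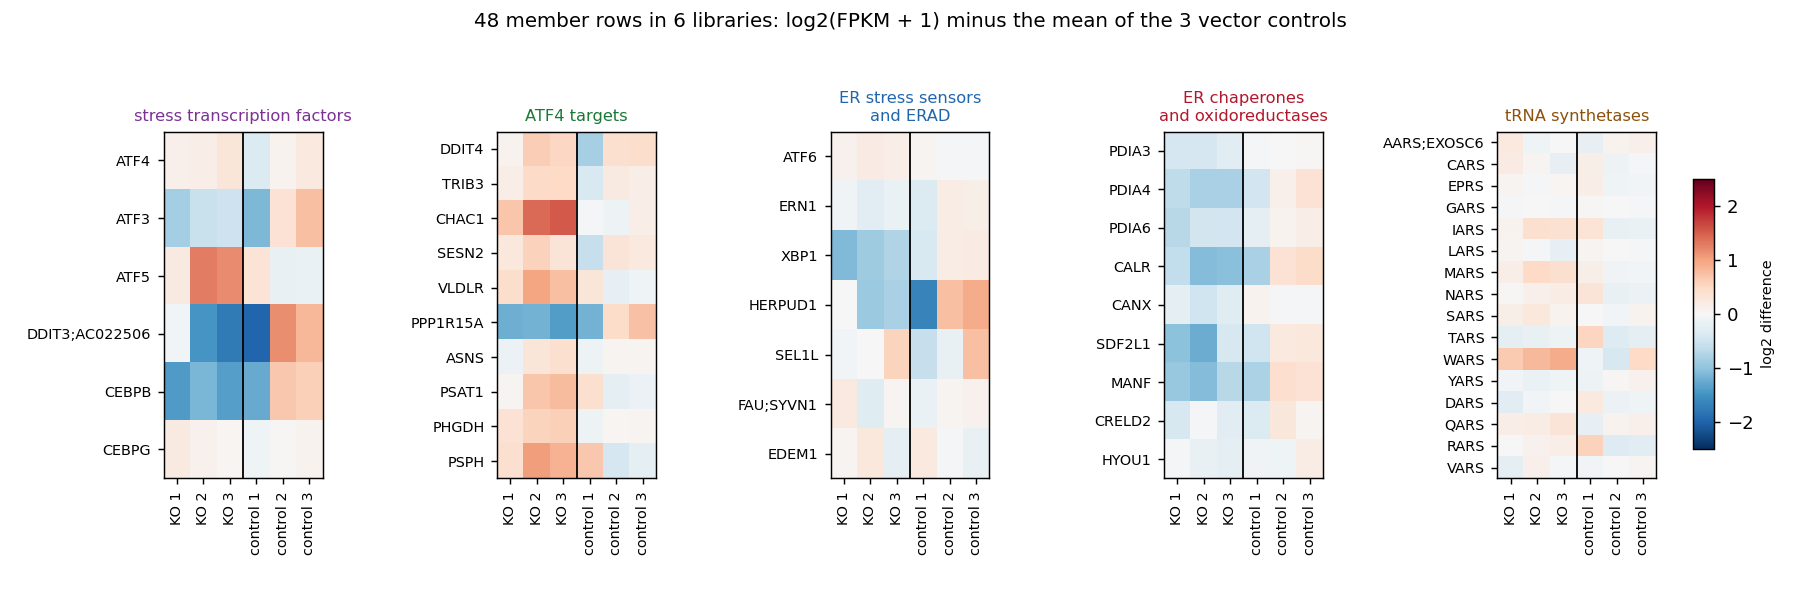
Rows are the 48 members in their role groups, columns the 6 libraries, and colour is log2(FPKM + 1) minus the mean of the 3 vector controls, from -2.5 (blue) to 2.5 (red). Vector control 1 is blue beside the red of vector control 2 and 3 for DDIT3, CEBPB, PPP1R15A and HERPUD1, and the 3 KO libraries are red for CHAC1.

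ATF4, the transcription factor of the integrated stress response, stood at 111.35, 114.65 and 125.67 FPKM in the KO libraries and at 80.31, 108.00 and 120.61 FPKM in the vector controls. The groups overlapped, and the lowest value was that of vector control 1. On the log2 scale the difference was 0.20 with a 95% interval from -0.23 to 0.64 (limma adjusted p = 0.611), and 0.04 without vector control 1. CEBPG, a dimer partner of ATF4, was as even, at 8.76 ± 0.598 FPKM in KO libraries and 7.96 ± 0.625 in vector controls (SD, n = 3 each).

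The stress-induced factors downstream of ATF4 divided the vector controls themselves. DDIT3, which encodes the pro-apoptotic factor CHOP, stood in its joined row at 29.11, 10.39 and 8.25 FPKM in the KO libraries and at 6.97, 69.97 and 54.91 FPKM in the vector controls. The highest and the lowest of the 6 values were both controls, and vector control 1 lay 2.98 below the mean of the other 2 controls on the log2(FPKM + 1) scale. The log2 fold change was -1.11 with an interval from -3.10 to 0.89, and -2.10 without vector control 1 (limma adjusted p = 0.0497). KO 1 also stood 1.55 above the mean of KO 2 and 3 on that scale, so DDIT3 varied within each group.

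CEBPB, a leucine zipper factor that pairs with ATF4 and CHOP, stood at 6.78, 8.43 and 7.03 FPKM in the KO libraries and at 7.71, 32.34 and 30.35 FPKM in the vector controls. The KO values were tight, and vector control 1 fell among them. Its log2 fold change of -1.32 had an adjusted p of 0.239 with all libraries, and was -1.95 with an adjusted p of 0.00327 in limma without vector control 1. ATF3, a stress-induced repressor of the same family, was at 1.33, 1.83 and 1.90 FPKM in the KO libraries and at 0.92, 4.37 and 6.06 FPKM in the vector controls. It had the same layout at a lower level, with a log2 fold change of -0.64, and -1.20 without vector control 1 (adjusted p = 0.0182).

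ATF5, a relative of ATF4 that is under the same kind of translational control, ran the other way. It stood at 3.99, 9.39 and 8.73 FPKM in the KO libraries and at 4.42, 2.77 and 2.83 FPKM in the vector controls. KO 2 and 3 were highest, while KO 1 lay below vector control 1. Its log2 fold change was 0.90 (SE 0.31, limma adjusted p = 0.218), and 1.07 without vector control 1 (adjusted p = 0.0890).

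**Figure D3:**
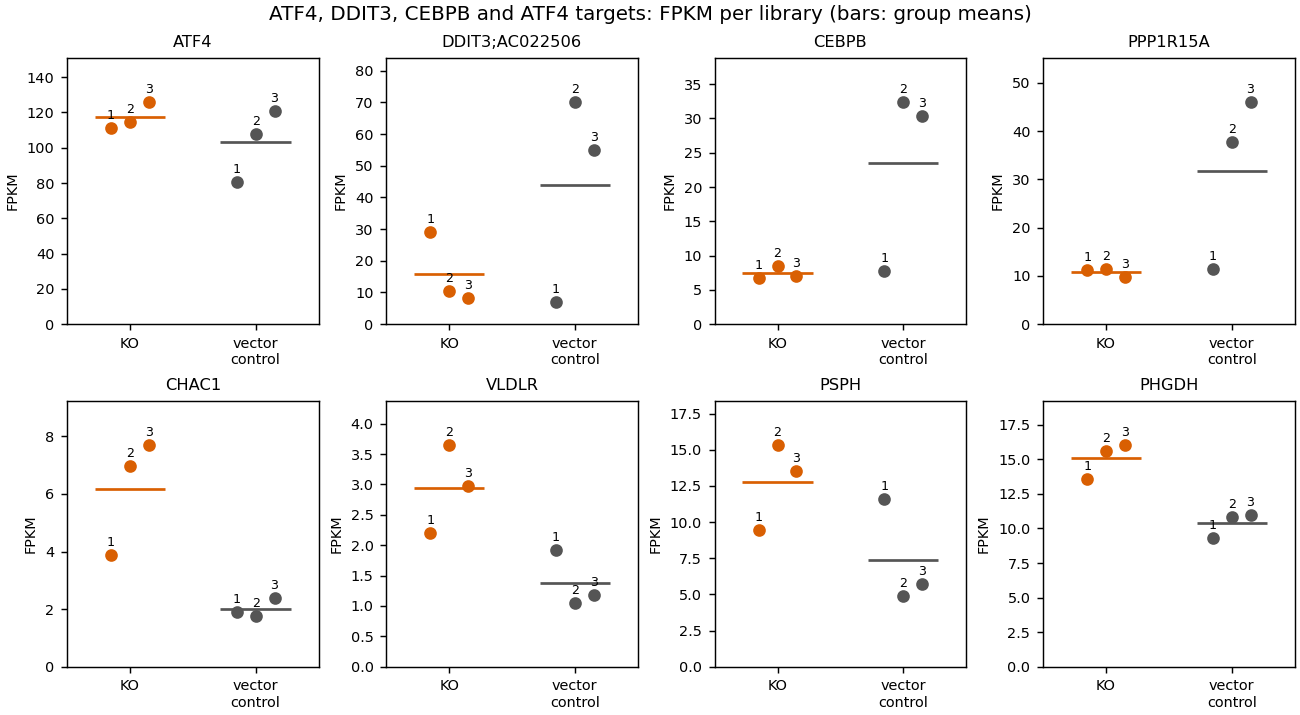
FPKM in each library (points, numbered by replicate) for the KO group and the vector control group, with bars at the group means. In DDIT3, CEBPB and PPP1R15A vector control 1 sits at or near the KO level, whereas in CHAC1, VLDLR and PHGDH all 3 KO libraries lie above all 3 controls.

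Among the ATF4 targets, CHAC1 had the highest log2 fold change and the lowest adjusted p. CHAC1, which encodes an enzyme that degrades glutathione, stood at 3.87, 6.98 and 7.70 FPKM in the KO libraries and at 1.89, 1.77 and 2.39 FPKM in the vector controls. All controls were alike here, vector control 1 included. The log2 fold change was 1.21 (SE 0.24, 95% interval 0.64 to 1.79), the limma adjusted p was 0.0714 with all libraries, 0.0468 without vector control 1 and 0.0250 without KO 1, the lowest KO library.

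VLDLR, a lipoprotein receptor gene, stood at 2.20, 3.65 and 2.98 FPKM in the KO libraries and at 1.92, 1.05 and 1.18 FPKM in the vector controls. The groups did not overlap, though KO 1 and vector control 1 were close. Its log2 fold change was 0.73 (SE 0.21, limma adjusted p = 0.160), and 0.88 without vector control 1 (adjusted p = 0.0363).

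The enzymes of serine synthesis were all above 0 in their fold changes. PHGDH, the entry enzyme, stood at 13.55, 15.62 and 16.03 FPKM in the KO libraries and at 9.33, 10.80 and 10.95 FPKM in the vector controls. The groups did not overlap, and the log2 fold change of 0.50 (SE 0.15) had a limma adjusted p of 0.170, and of 0.0740 without vector control 1. PSAT1, the transaminase of the middle step, was at 93.83, 144.28 and 156.04 FPKM in the KO libraries and at 117.39, 75.41 and 80.36 FPKM in the vector controls. PSPH, the phosphatase of the last step, was at 9.45, 15.33 and 13.50 FPKM in the KO libraries and at 11.60, 4.90 and 5.69 FPKM in the vector controls. In PSAT1 and PSPH vector control 1 exceeded KO 1, and KO 2 and 3 exceeded every control. PSPH was called without vector control 1 (log2 fold change 1.11, limma adjusted p = 0.0312) and PSAT1 was not (0.71, adjusted p = 0.0986).

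PPP1R15A was the exception among the targets. It encodes GADD34, the subunit that directs a phosphatase to eIF2 and so ends the response. It stood at 11.21, 11.48 and 9.77 FPKM in the KO libraries and at 11.52, 37.72 and 45.93 FPKM in the vector controls. The groups did not overlap, but vector control 1 was just above KO 2. The log2 fold change of -1.26 (SE 0.46, limma adjusted p = 0.233) became -1.85 without vector control 1 (adjusted p = 0.00426).

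The other targets showed little beyond a low vector control 1. DDIT4, an inhibitor of the growth kinase complex mTORC1, was at 99.87, 144.42 and 135.43 FPKM in the KO libraries and at 52.32, 123.86 and 127.26 FPKM in the vector controls. Its log2 fold change was 0.41 with all libraries and -0.01 without vector control 1. TRIB3, a pseudokinase, and SESN2, a leucine-binding inhibitor of mTORC1, also had their lowest value in vector control 1, at 8.62 and 1.70 FPKM, and their log2 fold changes were 0.19 and 0.11 without it. ASNS, the asparagine synthetase gene, averaged 9.54 ± 1.97 FPKM in KO libraries and 8.15 ± 0.661 in vector controls (SD, n = 3 each), with a log2 fold change of 0.19.

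XBP1 had the lowest adjusted p among the ER sensors and ERAD genes. This factor of the IRE1 branch stood at 15.86, 18.40 and 20.33 FPKM in the KO libraries and at 26.53, 39.95 and 40.42 FPKM in the vector controls. All KO libraries lay below all controls, and vector control 1 was between. A log2 fold change of -0.91 (SE 0.21, 95% interval -1.40 to -0.43, limma adjusted p = 0.0990) was found with all libraries, and -1.11 without vector control 1 (adjusted p = 0.0131). Gene-level FPKM does not separate spliced from unspliced XBP1 mRNA.

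HERPUD1, which encodes an ER membrane protein of ERAD, ran parallel to DDIT3. It stood at 18.56, 9.29 and 10.16 FPKM in the KO libraries and at 5.14, 31.89 and 36.42 FPKM in the vector controls. Vector control 1 was again the lowest library and KO 1 the highest of the KO group. The log2 fold change was -0.58 with all libraries and -1.42 without vector control 1 (limma adjusted p = 0.0356).

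The sensors themselves had small log2 fold changes with all libraries. ERN1 stood at 1.70, 1.39 and 1.54 FPKM in the KO libraries and at 1.26, 2.26 and 2.17 FPKM in the vector controls. Vector control 2 and 3 exceeded every KO library, and vector control 1 was the lowest library. Its log2 fold change was -0.17, and -0.34 without vector control 1 (limma adjusted p = 0.116). ATF6 was at 11.7 ± 0.436 FPKM in KO libraries and 10.4 ± 0.515 in vector controls (SD, n = 3 each). All KO values of ATF6 exceeded all control values, by a log2 fold change of 0.16 with an interval from -0.16 to 0.48. The ERAD genes SEL1L and EDEM1 and the joined row FAU;SYVN1 had log2 fold changes of 0.17, 0.03 and 0.01, and their groups overlapped. SYVN1 encodes the ERAD ubiquitin ligase HRD1 and SEL1L its adaptor, but the SYVN1 row also counts FAU, a ribosomal protein gene.

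The ER chaperones and oxidoreductases shared a direction. Each of the 9 had a negative log2 fold change, from -0.92 for CALR to -0.16 for HYOU1, and also after median scaling and quantile normalization. Limma called 0 of the 9 with all libraries and 5 without vector control 1, all lower in the KO libraries (5.07% of all tested rows were called lower in that fit). Calreticulin and calnexin, encoded by CALR and CANX, hold glycoproteins in the ER until they fold. CALR stood at 270.01, 193.99 and 200.33 FPKM in the KO libraries and at 234.77, 529.81 and 571.67 FPKM in the vector controls. Vector control 1 lay within the KO range, and the log2 fold change of -0.92 became -1.33 without it (limma adjusted p = 0.0157). CANX stood at 144.06, 119.49 and 137.01 FPKM in the KO libraries and at 179.57, 161.89 and 164.58 FPKM in the vector controls. In CANX the groups did not overlap and vector control 1 was the highest library, with a log2 fold change of -0.34 (limma adjusted p = 0.281).

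The 3 protein disulfide isomerases among the members had all KO libraries below all controls, as had 8.35% of all tested rows. PDIA4 stood at 68.60, 61.28 and 60.66 FPKM in the KO libraries and at 76.89, 117.11 and 138.99 FPKM in the vector controls. PDIA6 stood at 82.97, 96.98 and 96.27 FPKM in the KO libraries and at 112.96, 142.46 and 149.84 FPKM in the vector controls. PDIA3, which works with calnexin and calreticulin, stood at 32.23, 32.04 and 35.86 FPKM in the KO libraries and at 42.14, 43.62 and 44.44 FPKM in the vector controls. Vector control 1 was the lowest control in each, but only in PDIA3 was it close to the other controls. Log2 fold changes were -0.76 for PDIA4, -0.54 for PDIA6 and -0.37 for PDIA3, with limma adjusted p of 0.175, 0.177 and 0.225. Without vector control 1, PDIA4 (-1.0, adjusted p = 0.0153) and PDIA6 (-0.66, adjusted p = 0.0282) were called, and PDIA3 (-0.39, adjusted p = 0.0740) was not. The layout was not shared by the whole family. Outside the members, the isomerase gene P4HB and the joined row PDIA5;SEC22A overlapped between the groups, with log2 fold changes of -0.14 and -0.21.

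MANF, a secreted ER-stress-induced protective factor, stood at 5.73, 5.09 and 7.03 FPKM in the KO libraries and at 6.51, 16.40 and 15.70 FPKM in the vector controls. SDF2L1, a component of ER chaperone complexes, was at 1.0, 0.73 and 2.09 FPKM in the KO libraries and at 1.86, 3.78 and 3.90 FPKM in the vector controls. Both overlapped through vector control 1, and both were called without it (log2 fold changes -1.30 and -1.14, limma adjusted p = 0.0122 and 0.0438). CRELD2, an ER folding factor, and HYOU1, an ER chaperone of the HSP70 superfamily, had smaller log2 fold changes of -0.25 and -0.16. The 95% intervals ran from -0.73 to 0.23 and from -0.51 to 0.19. Without vector control 1 the values were -0.42 and -0.20. In CRELD2 vector control 1 was within the KO range, and vector control 2 and 3 were above it.

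**Figure D4:**
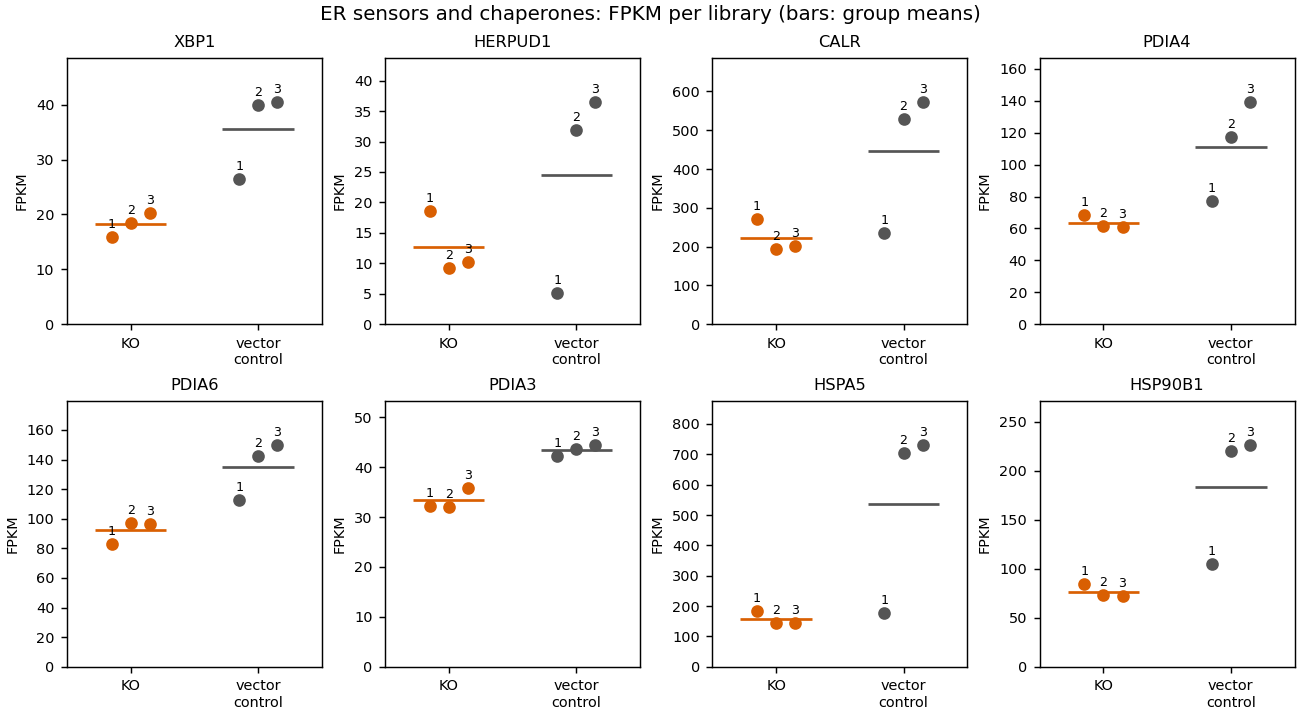
FPKM in each library (points, numbered by replicate) for the KO group and the vector control group, with bars at the group means, for 6 members and the ER chaperones HSPA5 and HSP90B1. Vector control 2 and 3 stand above the other 4 libraries in each panel, and in PDIA3 vector control 1 is close to them.

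HSPA5 and HSP90B1, the abundant ER chaperones BiP and GRP94, are no members of the list and showed the same layout. HSPA5 stood at 183.76, 144.21 and 144.70 FPKM in the KO libraries and at 175.56, 704.91 and 730.68 FPKM in the vector controls. HSP90B1 stood at 84.50, 73.25 and 71.99 FPKM in the KO libraries and at 105.05, 219.93 and 226.34 FPKM in the vector controls. Vector control 1 was within the KO range for HSPA5 and just above it for HSP90B1. Their log2 fold changes of -1.51 and -1.17 had limma adjusted p of 0.217 and 0.134 with all libraries, and were -2.19 and -1.53 without vector control 1 (adjusted p = 0.00327 and 0.00459).

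Promoters of ER stress genes are known for a shared element, and the stretches that hold it are shown for the members described above and for HSPA5. Windows from 250 bases before to 50 bases after each gene's start were taken from RefSeq on GRCh38.p14 and were found for 42 of the 48 members. They were searched on both strands for the ER stress response element ERSE, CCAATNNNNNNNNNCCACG, which ATF6 and NF-Y bind, and its variant ERSE-II, ATTGGNCCACG. Among members, 4 of 42 windows held ERSE and 3 held ERSE-II. Of all 35116 windows, 0.0769% held ERSE and 0.0541% held ERSE-II. The stretches below are given 5′ to 3′ along the gene's strand, with the matched element in capitals. In XBP1 (chr22:28800578-28800646, minus strand) it begins 52 bases upstream of the start, and in HSPA5 (chr9:125241366-125241434, minus strand) 66 bases upstream. In CALR (chr19:12938359-12938427, plus strand) and CRELD2 (chr22:49918529-49918597, plus strand) it lies on the opposite strand, and in CANX (chr5:179698753-179698821, plus strand) on the same strand. SDF2L1 (chr22:21642089-21642149, plus strand) has ERSE-II on the opposite strand.
XBP1: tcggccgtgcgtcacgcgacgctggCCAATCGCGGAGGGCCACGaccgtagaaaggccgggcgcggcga
HSPA5: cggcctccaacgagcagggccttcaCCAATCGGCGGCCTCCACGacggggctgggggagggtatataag
CALR: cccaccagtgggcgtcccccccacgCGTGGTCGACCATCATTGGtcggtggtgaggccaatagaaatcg
CANX: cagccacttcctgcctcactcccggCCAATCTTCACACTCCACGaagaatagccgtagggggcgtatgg
CRELD2: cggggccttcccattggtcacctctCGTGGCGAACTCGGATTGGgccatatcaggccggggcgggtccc
SDF2L1: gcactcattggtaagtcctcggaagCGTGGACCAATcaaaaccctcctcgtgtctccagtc

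HERPUD1 held ERSE-II and the core of the C/EBP-ATF response element (CARE), TGATGNAA, which ATF4 binds with C/EBP partners. HYOU1 held ERSE-II at 2 places. The HERPUD1 stretch (chr16:56931941-56932060, plus strand) shows the CARE core on the opposite strand, followed by ERSE-II. The HYOU1 stretch (chr11:119057249-119057415, minus strand) shows both ERSE-II matches, each on the opposite strand.
HERPUD1: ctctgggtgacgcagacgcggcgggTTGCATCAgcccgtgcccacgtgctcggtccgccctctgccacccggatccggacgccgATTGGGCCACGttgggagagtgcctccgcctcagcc
HYOU1: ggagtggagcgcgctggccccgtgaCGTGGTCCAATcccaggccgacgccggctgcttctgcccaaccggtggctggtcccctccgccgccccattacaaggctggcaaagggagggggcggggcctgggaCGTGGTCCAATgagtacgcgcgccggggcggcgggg

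Among chaperones with a match, CALR had a log2 fold change of -0.92 and HYOU1 one of -0.16. PDIA4, PDIA6 and MANF, at -0.76, -0.54 and -0.91, had none of these letters in their windows. A match describes letters and not binding.

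The tRNA synthetases, the enzymes that load amino acids onto tRNA, were close between the groups. Their log2 fold changes ran from -0.17 for TARS to 0.79 for WARS, with 10 above 0 and 6 below, a split that became 6 and 10 after median scaling. Without vector control 1 the split was 11 and 5, the median was 0.11 and TARS turned to 0.10. Robust limma with array weights called 5 of the 16 higher and 0 lower, where it called 41.8% of all tested rows. Limma called 0 of the 16 with all libraries and 0 without vector control 1. The range between the lowest and the highest KO library had a median of 0.21 on the log2(FPKM + 1) scale over the 16, against 0.36 over all tested rows. The corresponding range of the vector controls was 0.30, against 0.46.

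WARS, the tryptophanyl-tRNA synthetase gene, which interferon gamma also induces, had the highest log2 fold change of the 16. It was at 46.95, 52.81 and 56.86 FPKM in the KO libraries and at 27.40, 22.27 and 42.37 FPKM in the vector controls. The groups did not overlap, and the highest control was vector control 3. The log2 fold change was 0.79 (SE 0.24, limma adjusted p = 0.177), and 0.74 without vector control 1 (adjusted p = 0.125). MARS, for methionine, was at 20.43, 25.85 and 24.13 FPKM in the KO libraries and at 20.04, 16.91 and 17.26 FPKM in the vector controls, with a log2 fold change of 0.36 (adjusted p = 0.296). QARS, for glutamine, was at 15.97, 16.03 and 17.86 FPKM in the KO libraries and at 12.12, 14.95 and 15.35 FPKM in the vector controls, with 0.22 (adjusted p = 0.489), and 0.12 without vector control 1. In MARS and QARS the groups were separate by less than the range within the controls.

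SARS, for serine, was the last synthetase without overlap, with a log2 fold change of 0.17. GARS, for glycine, was even at 63.8 ± 1.49 FPKM in KO libraries and 64.9 ± 1.40 in vector controls (SD, n = 3 each), a log2 fold change of -0.03 with a 95% interval from -0.32 to 0.27. Vector control 1 stood above the other 5 libraries for TARS, at 40.79 FPKM, for RARS, at 31.63, for NARS, at 46.30, and for DARS, at 33.30. These serve threonine, arginine, asparagine and aspartate. Vector control 1 was also the highest library for EPRS, at 69.44 FPKM, for GARS, at 66.53, and for LARS, at 33.94. It exceeded both vector control 2 and 3 in 10 of the 16 synthetases. CARS, EPRS, IARS, LARS, VARS, YARS and the joined row AARS;EXOSC6 had log2 fold changes between -0.11 and 0.29, and their groups overlapped.

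The CARE core was found in 6 of the 12 windows of synthetases, in 2 of 9 windows of ATF4 targets and in 0 of 8 windows of ER chaperones and oxidoreductases, against 3.62% of all windows. The stretches are shown because ATF4 acts on its targets through this element, and they set CHAC1 and ASNS beside the synthetases. The matches are in capitals, and TTGCATCA is the core read on the opposite strand. They lie at chr15:40953237-40953294 (plus strand) for CHAC1, chr7:97872444-97872501 (minus strand) for ASNS, and chr16:70289661-70289718 (minus strand) for AARS. Those of CARS (chr11:3057407-3057436, minus strand), IARS (chr9:92293698-92293735, minus strand), MARS (chr12:57488053-57488082, plus strand) and TARS (chr5:33440956-33440985, plus strand) span or adjoin the start site, and that of NARS (chr18:57621804-57621833, minus strand) is just inside the gene.
CHAC1: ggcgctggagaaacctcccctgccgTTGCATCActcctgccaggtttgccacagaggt
ASNS: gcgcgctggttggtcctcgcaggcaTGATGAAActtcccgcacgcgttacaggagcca
AARS: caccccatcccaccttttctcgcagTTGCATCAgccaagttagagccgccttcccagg
CARS: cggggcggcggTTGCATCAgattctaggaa
IARS: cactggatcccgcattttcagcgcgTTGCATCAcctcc
MARS: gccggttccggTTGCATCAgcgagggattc
NARS: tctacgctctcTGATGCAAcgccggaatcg
TARS: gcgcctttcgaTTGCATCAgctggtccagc

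**Figure D5:**
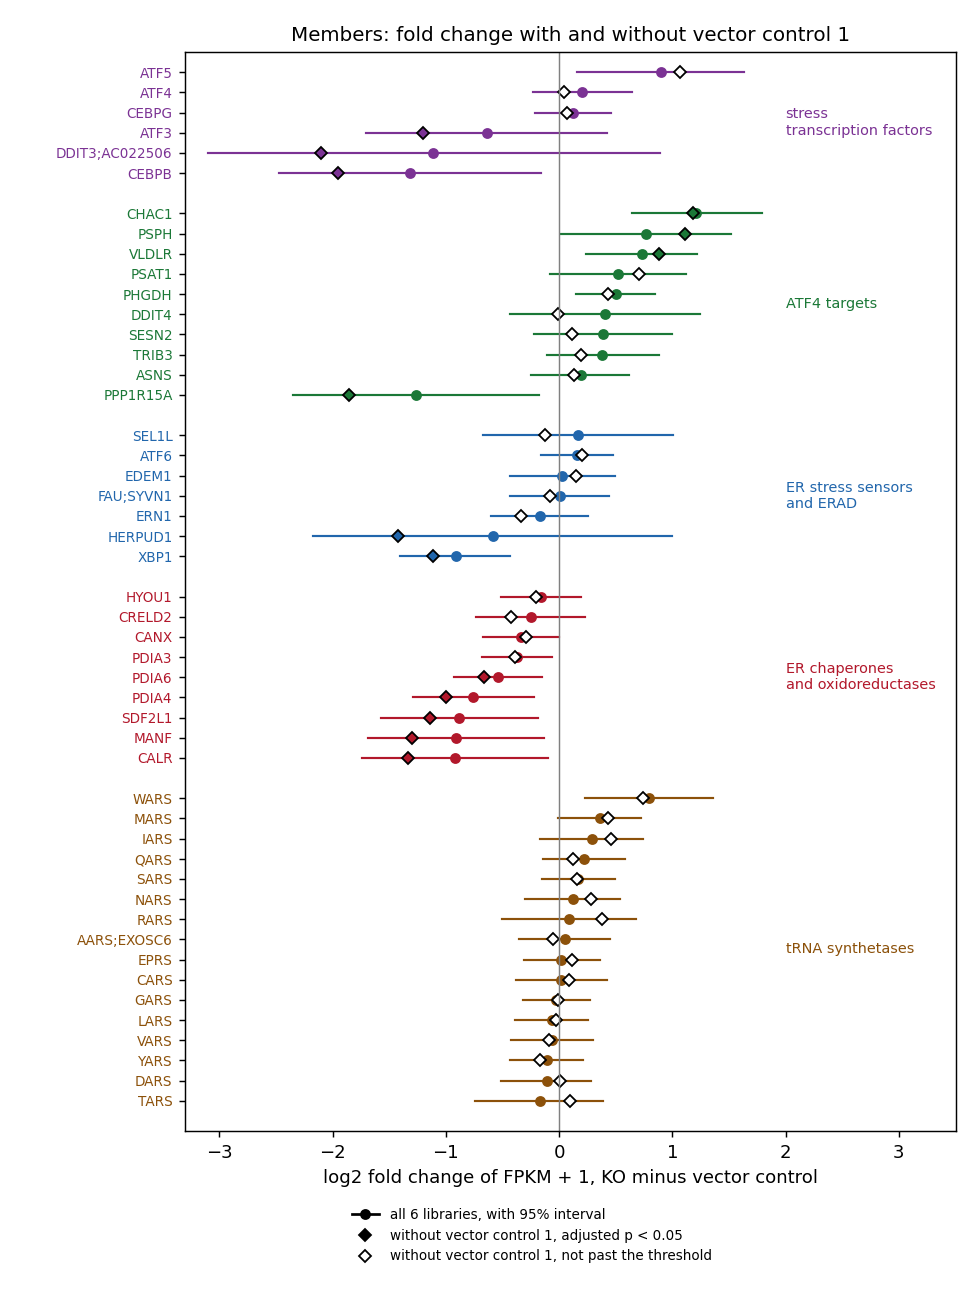
Log2 fold change of each member, KO minus vector control (horizontal axis), with all 6 libraries (circles, lines are 95% intervals) and without vector control 1 (diamonds, filled where the limma adjusted p is below 0.05). The filled diamonds are 11 members below 0 and 3 above it, CHAC1, PSPH and VLDLR, and no tRNA synthetase is among them.

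The number of members called depended on vector control 1 and on the model. Without vector control 1 the 11 called lower were ATF3, CALR, CEBPB, DDIT3, HERPUD1, MANF, PDIA4, PDIA6, PPP1R15A, SDF2L1 and XBP1, and the 3 called higher were CHAC1, PSPH and VLDLR. Leaving out KO 1 gave 1 call, CHAC1, and leaving out any other library gave 0. With robust limma and array weights 25 members were called, where 41.8% of all tested rows were. With the histone share as a covariate 7 were called, where 6.21% of all tested rows were. Those 7 were CALR, CHAC1, DDIT3, PDIA4, PSPH, VLDLR and XBP1, which were all among the 14. The histone share itself set vector control 1 and KO 1 apart from their groups, so this overlap does not come from independent fits. Vector control 1 differed from the mean of the other controls by more than 0.5 on the log2(FPKM + 1) scale in 17 members below and 6 above (47.9% of members, 36.5% of all tested rows). It lay nearer to the KO mean than to the mean of vector control 2 and 3 in 33 members (68.8%), against 60.8% of all tested rows.

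Among 101 further genes of these pathways, 94 were tested. Limma called 1 higher and 1 lower in the KO libraries, where it called 1.35% of all tested rows. SLC1A4, a transporter of alanine, serine and cysteine and an ATF4 target, rose, with 3.46, 4.97 and 5.48 FPKM in the KO libraries and 1.49, 0.75 and 1.04 FPKM in the vector controls. All KO libraries exceeded all controls (log2 fold change 1.43, SE 0.21, adjusted p = 0.0288). GADD45A, a growth arrest gene induced by stress, fell, with 3.40, 2.72 and 2.79 FPKM in the KO libraries and 6.29, 10.92 and 12 FPKM in the vector controls (log2 fold change -1.40, SE 0.24, adjusted p = 0.0466). Without vector control 1 they kept their calls, at 1.56 (adjusted p = 0.0143) and -1.65 (adjusted p = 0.00522). Each lost the call without KO 2, KO 3, vector control 2 or vector control 3, with adjusted p from 0.117 to 0.147 for SLC1A4 and from 0.174 to 0.200 for GADD45A, which also lost it without KO 1 (0.0847).

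Amino acid transporters did not move as a block. Of 9 tested, SLC6A9, a glycine transporter gene, also had all KO libraries above all controls, with 2.64, 2.66 and 2.12 FPKM in the KO libraries and 1.28, 1.40 and 1.34 FPKM in the vector controls (log2 fold change 0.57, limma adjusted p = 0.123, and 0.0494 without vector control 1). SLC1A5, a glutamine transporter gene, was at 26.45, 23.92 and 25.18 FPKM in the KO libraries and 35.95, 26.86 and 26.77 FPKM in the vector controls (-0.22, and -0.09 without vector control 1). The list median was -0.12. Without vector control 1 limma called 3 of the 9 higher, SLC1A4, SLC6A9 and SLC7A11, and 2 lower, SLC3A2 and SLC38A2. In that fit 8.74% of all tested rows were called higher and 5.07% lower. SLC7A11, SLC3A2 and SLC38A2 were named after their values were seen.

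The serine, one-carbon, proline and cysteine enzymes had a median of 0.17 over 10 tested, against 0.08 over all tested rows, and 0 were called. ALDH1L2, the mitochondrial enzyme that oxidises formyl-tetrahydrofolate, was at 1.72, 3.08 and 2.94 FPKM in the KO libraries and 0.65, 0.71 and 0.77 FPKM in the vector controls. It missed the threshold narrowly (log2 fold change 1.04, SE 0.19, limma adjusted p = 0.0505) and passed it without vector control 1 (1.02, adjusted p = 0.0343). CTH, which makes cysteine from cystathionine, was at 10.95, 9.39 and 9.80 FPKM in the KO libraries and 4.83, 7.83 and 6.90 FPKM in the vector controls (0.57, adjusted p = 0.208). ALDH18A1, of proline synthesis, was at 39.44, 35.06 and 32.57 FPKM in the KO libraries and 41.17, 40.22 and 42.62 FPKM in the vector controls (-0.21, adjusted p = 0.475).

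A list of 14 genes held the eIF2 kinases, eIF2 and its exchange factor eIF2B, and also PPP1R15B and EIF4EBP1. Of these 14, 0 were called with all libraries, and the median was 0.00. EIF2AK3, the PERK gene, was at 3.76, 4.22 and 5.31 FPKM in the KO libraries and 3.88, 6.52 and 5.84 FPKM in the vector controls (log2 fold change -0.23, limma adjusted p = 0.626, and -0.41 without vector control 1). EIF2AK2, the gene of the double-stranded RNA sensor PKR, was at 18.69, 13.17 and 14.26 FPKM in the KO libraries and 10.38, 12.14 and 8.89 FPKM in the vector controls (0.51, adjusted p = 0.238). EIF2AK1, the gene of the haem-regulated kinase, was at 27.43, 26.70 and 25.01 FPKM in the KO libraries and 21.87, 21.44 and 24.32 FPKM in the vector controls (0.22, adjusted p = 0.445). PPP1R15B, the constitutive counterpart of GADD34, was at 22.61, 22.90 and 22.07 FPKM in the KO libraries and 26.49, 31.64 and 31.82 FPKM in the vector controls (-0.39, adjusted p = 0.229, and 0.0391 without vector control 1). EIF2B3, a subunit of eIF2B, was at 9.10, 9.26 and 9.15 FPKM in the KO libraries and 12.33, 10.26 and 10.32 FPKM in the vector controls (-0.23, adjusted p = 0.445, and -0.15 without vector control 1).

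Of 31 further tested ER chaperone, ERAD and secretory genes, 0 were called with all libraries and 4 without vector control 1, all lower in the KO libraries (5.07% of all tested rows were called lower in that fit). These were HSPA5, HSP90B1, DNAJB9 and DNAJB11, the last 2 being ER co-chaperones of BiP. The joined row DNAJB11;AC068631 was at 7.14, 7.30 and 8.61 FPKM in the KO libraries and 9.15, 12.43 and 12.36 FPKM in the vector controls (log2 fold change -0.50, limma adjusted p = 0.218). The list as a whole had no shared direction, with a median log2 fold change of -0.09, 14 genes above 0 and 17 below. SEC61A1 encodes the channel subunit of the ER translocon. It was at 33.02, 67.04 and 65.50 FPKM in the KO libraries and 31.22, 24.76 and 23.15 FPKM in the vector controls (0.98, limma adjusted p = 0.170). KO 1 was close to vector control 1 there, and without KO 1 the adjusted p was 0.0362. MBTPS1, the protease that activates ATF6, was at 15.95, 13.11 and 14.08 FPKM in the KO libraries and 12.86, 11.35 and 12.33 FPKM in the vector controls (0.22, adjusted p = 0.475).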

How the data were processed

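The submitters deposited FPKM for 6 libraries in 1 table, and the submitters' processing notes name HISAT2, cutadapt and FastQC, with hg19 as the build. The sources used here do not name the tool that made FPKM, the annotation, versions or strand use, so a gene and an antisense partner cannot be told apart. FPKM is scaled to length and library size by the authors, the depth is unknown, and the libraries' FPKM sums ran from 123107 to 134389. All 13 mitochondrially encoded rows are listed at 0, so an exact 0 can be an unmeasured value.

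Libraries were grouped by title, and the labels pair none. Rows with at least 1 FPKM in at least 3 libraries were tested with limma 3.58.1 in R 4.3.3 (lmFit, eBayes with trend) on log2(FPKM + 1), two-sided, with Benjamini-Hochberg adjustment over all 9624 tested rows, called below 0.05. The pseudocount of 1 understates fold changes of low genes. The fit was tested on simulated data with independent noise in each gene and library. No simulated library stood apart across many genes as vector control 1 does, so that case was not tested. Alternatives were other pseudocounts and filters, median scaling, quantile normalization, no trend, array weights, a replicate block, the histone share as covariate and each library left out.

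Members and lists were chosen with earlier results of these data known. Values per library are given for ATF4, DDIT3, XBP1, HSPA5 and EIF2AK3, called genes, and the highest and lowest fold changes without overlap in each role group (3 each) or further list (2 each). Other genes with values, among them CEBPB, ATF3, ATF5, HERPUD1, CALR, MANF, SDF2L1, CANX, DDIT4, PSAT1 and PSPH, were chosen after their values were seen. Promoter windows came from RefSeq, GRCh38.p14, with no coordinates of the deposited build used.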

Additional observations from a re-analysis of the deposited data

How the results depend on the processing

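Over all tested rows limma called 130, 49 higher and 81 lower in the KO libraries, and the number moved to 241 without a filter, 59 with a filter at 5 FPKM, 4020 with robust limma and array weights and 598 with the histone share as a covariate. The split was 31 higher and 99 lower with quantile normalization and 43 and 97 with median scaling. Leaving out 1 library gave between 25 calls (without KO 3) and 1329 (without vector control 1). Of the 48 members, 0 were called with all libraries. The number was 25 with robust limma and array weights and 7 with the histone share, and leaving out 1 library gave 0 to 14. It was also 0 with pseudocounts of 0.1 and 0.5, either filter, median scaling, quantile normalization and no trend. The 14 members without overlap (29.2%, against 23.8% of all tested rows) became 16 to 32 when 1 library was left out (33.3% to 66.7%, against 27.6% to 52.8% of all tested rows), which leaves fewer libraries to overlap. Deviations of same-numbered libraries from their group means correlated at -0.374, -0.153 and -0.264 across genes. KO 1 and vector control 1 each stood apart from their group, so these correlations cannot show whether the numbers pair the libraries. With the replicate block 7 rows and 0 members were called, and SLC1A4 and GADD45A had adjusted p of 0.213 and 0.224. The call of GADD45A was also lost without a filter (0.0552) and at 5 FPKM (0.0638). Of the 34 genes named by the rule, 0 changed direction under those of the 16 alternatives in which they were tested. Depth is unknown and sets no stated limit, and 3 libraries per group with unequal controls limit the precision.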

Other observations

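Of the 17 mitochondrial tRNA synthetases, 0 were called with all libraries, and the median log2 fold change was 0.07. Without vector control 1, limma called 1, PARS2, higher in the KO libraries, where it called 8.74% of all tested rows higher. MARS2, for methionine, was listed at 0 in KO 1 and KO 3 and stood at 3.36 FPKM in KO 2, against 7.53, 4.53 and 4.80 FPKM in the vector controls. The alanine enzyme gene AARS2 stood at 3.94, 4.30 and 4.99 FPKM in the KO libraries and at 3.58, 2.91 and 3.57 FPKM in the vector controls (log2 fold change 0.31, limma adjusted p = 0.350). Of 7 further cytosolic synthetases and scaffold genes, 0 were called with all libraries. Without vector control 1, 1 was called higher in the KO libraries, AIMP2, against 8.74% of all tested rows. AIMP1, a scaffold protein of the cytosolic synthetase complex, stood at 7.98, 7.08 and 8.41 FPKM in the KO libraries and at 11.15, 8.56 and 8.62 FPKM in the vector controls (-0.24, adjusted p = 0.494, and -0.12 without vector control 1).

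Several further stress targets, chosen after their values were seen, repeated the division of the controls. GDF15, a secreted stress hormone, stood at 18.41, 11.49 and 11.81 FPKM in the KO libraries and at 4.68, 103.53 and 108.37 FPKM in the vector controls. BBC3, the pro-apoptotic PUMA gene, stood at 1.18, 0.57 and 0.78 FPKM in the KO libraries and at 0.45, 6.43 and 5.61 FPKM in the vector controls. VEGFA, the angiogenic growth factor gene, stood at 3.81, 5.41 and 3.69 FPKM in the KO libraries and at 1.74, 13.82 and 13.71 FPKM in the vector controls. Vector control 1 was the lowest library and vector control 2 and 3 the highest for each. The amino acid transporter gene SLC7A11 had the opposite layout, with 3.91, 6.03 and 6.21 FPKM in the KO libraries and 7.04, 1.77 and 1.28 FPKM in the vector controls.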
